A study of Mus musculus with 8 samples.

Results

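Accessible chromatin far from genes was described in macrophages of Nfat5 knockout (KO) and wild-type (WT) mice. The regions were chosen by position alone. Peaks from all 8 deposited lists, on the 21 main chromosomes, were joined wherever they shared at least 1 base, and a merged region was taken as far when no protein-coding gene body of the GRCm38 gene table lay within 100 kb of it. Of 87260 merged regions, 8763 (10.04%) were far, and the remaining 78497 are called the other regions here. The peaks came from ATAC-seq, which reads where a transposase can reach DNA and so maps open chromatin. Macrophages were grown for 7 days from bone marrow of NFAT5-deficient or WT mice in 25% medium conditioned by L929 cells, a mouse fibroblast line that makes M-CSF, on which macrophages grow. The cells then received lipopolysaccharide (LPS, an outer membrane component of Gram-negative bacteria) from E. coli at 0.3 ng/ml for 2 h, or were left untreated. There were 2 libraries in each of 4 groups, KO with LPS, WT with LPS, KO untreated and WT untreated. The labels call the 2 libraries of a group biological replicates and each title carries a code that 1 LPS and 1 untreated library have in common, without saying whether these come from 1 animal. They do not give the Nfat5 allele, whether the deletion reaches every cell type, or the sex and age of the mice.

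A peak list gives positions and widths and no signal, so the measurements here are whether a library called a region and how wide its peak was. Sequencing depth is unknown, no counting interval can be given, and a region absent from a list may still have been open in that library. The lists held between 54027 and 60117 peaks and called between 52718 and 59090 regions each. All 14 macrophage markers examined, such as Spi1, Csf1r and Adgre1, had a region called in all 8 lists within 5 kb of the gene body. So did 2 of 7 T cell markers, 3 of 6 B cell markers, 3 of 7 neutrophil markers, 5 of 6 dendritic cell markers, 3 of 6 erythroid markers, 3 of 7 fibroblast or stroma markers and 0 of 6 mast cell or basophil markers. The share over all genes by this rule was not counted. For scale, 44.1% of protein-coding start sites alone lay in a region called in all 8 lists. The Nfat5 gene held 2 regions. KO libraries called 1 and 2 of them with LPS and 2 and 2 untreated, and each WT library called 1, so the gene's own calls do not mark the deletion.

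Most mammalian regulatory DNA lies outside genes. Enhancers can act on a promoter over long distances by looping, and long stretches with few or no protein-coding genes, known as gene deserts, often flank genes for developmental regulators and transcription factors. In macrophages the pioneer factor PU.1, with C/EBP and AP-1 factors, opens many distal elements, and LPS activates NF-kB and AP-1 within minutes to hours. Such stretches also hold long non-coding RNA (lncRNA) genes, antigen receptor gene segments, pseudogenes and repeats.

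The far regions that can be tied to a gene of their own were those over lncRNA start sites. Of 2076 annotated lncRNA start sites more than 100 kb from a protein-coding gene, 95 (4.58%) lay in a region, and 54 of these (2.60% of the 2076) lay in a region called in all 8 lists. Of other lncRNA start sites 17.3% lay in a region and 13.8% in one of all 8 lists, and of protein-coding start sites 49.4% and 44.1%. Promoter windows are shown for 5 of the 54, whose regions were called in every library. They run from lncRNAs known in macrophages to one deep inside a wide gene-free stretch. This choice does not stand for the 54. The windows of Lncpint and Dubr, also in regions called in every library, held none of the motifs named below and are not shown. Each is the RefSeq window on GRCm38.p6 from 250 bases before to 50 bases after the start, on the gene's strand, 5′ to 3′. Capitals mark matches, on either strand, to a PU.1 core (GGAAGT), an AP-1 motif (TGANTCA), an NF-kB motif (GGGNNTTCC) or a C/EBP motif (TTGCNNAA).
Morrbid: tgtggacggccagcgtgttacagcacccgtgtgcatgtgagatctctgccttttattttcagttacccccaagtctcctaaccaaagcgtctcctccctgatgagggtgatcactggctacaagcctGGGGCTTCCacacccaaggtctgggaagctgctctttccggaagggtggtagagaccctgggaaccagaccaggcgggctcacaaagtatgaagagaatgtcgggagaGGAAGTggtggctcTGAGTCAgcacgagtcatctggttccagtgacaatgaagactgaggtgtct
Mexis: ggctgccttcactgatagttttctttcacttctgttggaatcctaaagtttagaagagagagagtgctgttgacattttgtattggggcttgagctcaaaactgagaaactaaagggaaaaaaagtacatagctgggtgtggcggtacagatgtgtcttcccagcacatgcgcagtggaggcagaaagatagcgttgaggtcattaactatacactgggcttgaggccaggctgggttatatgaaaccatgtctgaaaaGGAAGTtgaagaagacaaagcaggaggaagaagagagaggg
Gm6634: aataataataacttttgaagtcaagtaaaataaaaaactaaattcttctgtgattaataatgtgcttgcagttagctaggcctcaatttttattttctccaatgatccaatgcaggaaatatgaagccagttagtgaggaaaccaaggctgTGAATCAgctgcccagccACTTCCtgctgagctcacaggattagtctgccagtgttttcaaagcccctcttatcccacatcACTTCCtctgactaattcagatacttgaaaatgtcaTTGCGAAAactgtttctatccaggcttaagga
Mir99ahg: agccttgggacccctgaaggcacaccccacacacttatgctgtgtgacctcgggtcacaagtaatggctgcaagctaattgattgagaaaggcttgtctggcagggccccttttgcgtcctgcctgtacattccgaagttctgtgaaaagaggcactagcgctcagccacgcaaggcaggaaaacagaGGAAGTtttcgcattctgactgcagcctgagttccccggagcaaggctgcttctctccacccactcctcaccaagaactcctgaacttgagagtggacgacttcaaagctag
Firre: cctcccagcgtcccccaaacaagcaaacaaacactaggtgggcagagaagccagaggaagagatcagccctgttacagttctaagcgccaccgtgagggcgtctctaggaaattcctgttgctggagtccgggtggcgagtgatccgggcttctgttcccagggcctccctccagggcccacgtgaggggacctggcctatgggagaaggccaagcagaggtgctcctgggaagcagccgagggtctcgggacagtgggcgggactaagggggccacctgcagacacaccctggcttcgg

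Morrbid, a lncRNA known in mice to restrain the neighbouring pro-apoptotic gene Bcl2l11 in short-lived myeloid cells, has its window on the minus strand at chr2:128429302-128429601. That window held a PU.1 core, an AP-1 motif and an NF-kB motif. Mexis, a lncRNA that mouse macrophages are known to use in the control of the cholesterol exporter gene Abca1, has its window on the minus strand at chr4:53270183-53270482, with 1 PU.1 core. Gm6634, a lncRNA with no role known here, has its window on the minus strand at chr3:70807242-70807541, 778 kb from Otol1 and 2081 kb from Sis, and held 2 PU.1 cores, 1 AP-1 motif and 1 C/EBP motif. Mir99ahg, the host gene of a microRNA cluster, has its window on the plus strand at chr16:77329078-77329377, with 1 PU.1 core. Firre, an X-linked lncRNA that organises nuclear domains, has its window on the minus strand at chrX:50635272-50635571 and held none of the 4 motifs.

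Over the 54 far windows in regions of all 8 lists, the PU.1 core was present in 37.0%, against 31.2% of the 10661 other windows in such regions and 23.8% of all 32812 promoter windows. The C/EBP motif was present in 24.1% of far windows, against 8.13% of the other windows and 10.8% of all. The AP-1 motif was present in 14.8% of far windows, against 4.81% of the other windows and 7.81% of all, and the NF-kB motif in 3.70%, against 7.75% and 5.82%. Base composition differed between these windows as well. The far windows averaged 49.5% G and C with a median of 5 CpG, and the other windows 61.4% with a median of 22. The part of base composition in the motif shares was not tested. The 1981 windows of far lncRNAs in no region, with 44.6% G and C, held the PU.1 core in 20.9%, the C/EBP motif in 14.7%, the AP-1 motif in 10.2% and the NF-kB motif in 3.79%, the last close to the share in the 54. Windows of 1 gene can overlap, and 3 of the 54 belong to Gm4258 and share 1 C/EBP match. A match is a description of letters, not of a bound site.

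The Mir99ahg promoter region, chr16:77328765-77330061, had peaks of 1206 and 1213 bases in KO and 1232 and 934 in WT with LPS, and 1256 and 1275 in KO and 1297 and 1246 in WT untreated. The Gm6634 region, chr3:70806846-70807796, had peaks of 785 and 800 bases in KO and 711 and 865 in WT with LPS, and 787 and 904 in KO and 919 and 951 in WT untreated. At Mir99ahg all 4 LPS libraries had narrower peaks than all 4 untreated ones, with 1232 and 1246 bases the closest values, and at Gm6634 the treatments overlap. Over all far regions the median peak averaged 364 bases with LPS and 381 untreated. How many far regions split by treatment in this way was not counted. The Morrbid promoter region, chr2:128428207-128430025, had peaks of 857 and 1698 bases in KO and 704 and 1710 in WT with LPS, and 1752 and 1749 in KO and 1769 and 1707 in WT untreated. There the first replicate of each LPS group was narrower than all 6 remaining libraries, while the second LPS replicates, at 1698 and 1710 bases, stood beside untreated values of 1707 to 1769.

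Far regions were called in fewer lists than other regions were. Of the 8763, 2299 (26.2%) were called in all 8 lists, where the share over all merged regions was 41.3%, and 2950 (33.7%) were called in a single list, where the share over all was 20.1%. Among other regions 42.9% were called in all 8 and 18.6% in 1. On average 51.8% ± 3.32 of a library's far regions were called in all 8 lists, against 65.5% ± 3.001 of its other regions (SD, n = 8). The other library of the same group also called 77.9% ± 3.45 of them, against 86.3% ± 1.66 of other regions (SD, n = 8). Libraries share the regions behind both measures, all 8 of them in the one and the 2 of a group in the other, so their values are not independent and no p is given. Other regions at least 5 kb outside any gene body lay between, at 59.4% in all 8 lists and 83.6% in the other library of the group.

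**Figure D1:**
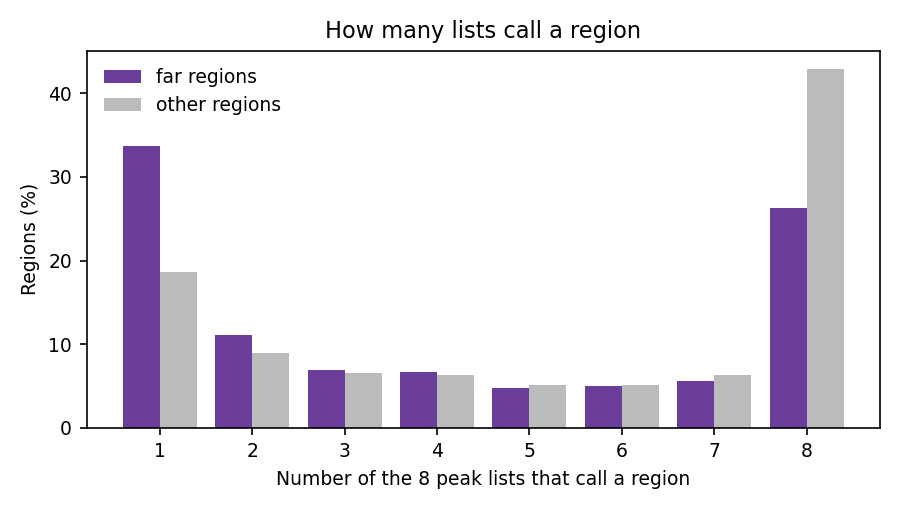
Share of far regions and of other regions (%, vertical axis) by the number of the 8 peak lists that call a region (horizontal axis). Far regions hold a larger share in the 1-list class (33.7% against 18.6%) and a smaller share in the 8-list class (26.2% against 42.9%).

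Far peaks were also narrower. The median peak width averaged 372.5 ± 12.5 bases in far regions and 425 ± 16.03 in other regions (SD, n = 8), and was lower in 8 of 8 libraries. In other regions at least 5 kb outside genes it averaged 380, much nearer to the far value. Against these regions the far median was higher only in the second WT library with LPS, at 374 against 373 bases. Libraries read many of the same regions, so their values are not independent and no p is given here either. Width and the number of calls went together, and the gap in calls was present within each width class. Among regions with a mean peak of 800 bases or more, 81.0% of 447 far regions were called in all 8 lists, against 96.7% of 7506 other regions. Between 300 and 400 bases the shares were 26.2% of 1641 far regions and 37.5% of 14834 other regions. Merged far regions had a median width of 384 bases, and 62 reached 2000 bases or more. The median was 712 bases for far regions called in all 8 lists and 218 for those called in 1.

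The widest far regions called in all 8 lists were of several kinds. The widest, chr9:3000030-3038287, was 38258 bases long, lay 297 kb from Alkbh8, the nearest protein-coding gene, and had peaks between 38240 and 38258 bases in the 8 lists. A region at chr14:19415722-19419654 likewise varied between 3928 and 3933 bases. Both thus had near-identical edges in every library. The next in width, on chromosomes 18, 3 and 16, had mean peak widths of 7956, 7409 and 4473 bases with SDs of 2414, 1555 and 1104 (n = 8). No annotation of repeats or mappability was used, and its part in these widths was not tested. A region between Prox1, a lymphatic transcription factor, and Rps6kc1 at chr1:190300293-190304153 averaged 3659 ± 79.4 bases (SD, n = 8).

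The distance to the nearest protein-coding gene had a median of 217 kb and ran from 100.014 to 2253 kb. Beyond 500 kb lay 1528 far regions (17.4%), and beyond 1000 kb 394. Regions called in all 8 lists lay nearer to genes, with a median of 188 kb, than those called in 1, with a median of 268 kb. The share called in all 8 lists was 31.1% at 100 to 200 kb, 25.0% at 200 to 500 kb and 16.2% beyond. The 10 regions just inside the limit lay 100.014 to 100.15 kb from a gene with a median of 5 calls, and the 10 just outside lay 99.8 to 99.991 kb away with a median of 3.5.

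The region farthest from any gene, chr18:28007991-28008211, lay 2253 kb from Celf4 and 2257 kb from Pik3c3 and was called in 1 untreated WT library at 221 bases. The 5 farthest regions were called in 1 to 4 lists. The farthest called in all 8 all lay in 1 gene desert on chromosome 5 between Pcdh7, a protocadherin, and G6pd2. Of these, chr5:59996401-59997196 had peaks of 663 and 658 bases in KO and 646 and 661 in WT with LPS, and 748 and 737 in KO and 697 and 647 in WT untreated. Its neighbour chr5:60042726-60043089 had peaks of 336 to 364 bases. These 2 regions, 1812 and 1766 kb from a gene, were thus called at a nearly constant width. The others of the 5 farthest called in all 8 varied more. Their mean peak widths were 428, 404 and 392 bases with SDs of 104, 125 and 164 (n = 8).

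Far regions were thinly and unevenly spread. Space more than 100 kb from protein-coding genes made up 785 Mb, or 29.2% of the sequence between the first and last gene of each chromosome, and held 11.1 far regions per Mb, against 41.1 regions per Mb elsewhere. Chromosome 3 held the most far regions (792), followed by chromosomes 13 (739), 12 (720), 1 (663) and 10 (658). Per Mb of gene-free space the highest densities were 21.8 on chromosome 13 and 19.4 on chromosome 10, and the lowest 4.94 on X and 0.846 on Y. Outside this space X and Y were also lowest, at 20.3 and 0.921 regions per Mb. Chromosomes 13 and 10 held 47.1 and 46.6 there.

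Most far regions had close neighbours. With a gap of up to 25 kb joining regions, 6375 (72.7%) fell into 1572 clusters of at least 2, and 2388 stood alone. Of the clustered regions 31.1% were called in all 8 lists, against 13.2% of those alone. The 93 clusters of at least 10 held 1524 regions. By gene-free stretch, the interval between 2 neighbouring protein-coding genes, far regions were present in 1094 stretches with a median of 4 each. The 5 fullest were Adam6a to Zfp386 on chromosome 12 with 346, Adgrl2 to Adgrl4 on chromosome 3 with 128, Nmbr to Cited2 on chromosome 10 with 83, Zeb2 to Acvr2a on chromosome 2 with 83 and Ttll7 to Adgrl2 on chromosome 3 with 61.

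The fullest stretch is the immunoglobulin heavy chain locus Igh, whose variable segments recombine in B cells. The gene table does not class antigen receptor segments as protein-coding, so they do not make a region near. Igh held 352 far regions, of which 64 were called in all 8 lists and 137 in 1. KO libraries called 139 and 138 of them with LPS and 134 and 171 untreated, and WT libraries 152 and 158 with LPS and 163 and 160 untreated, so the genotypes overlap. Clusters of 119, 60, 35 and 33 far regions made up 4 of the 5 largest in the data. The cluster of 119, chr12:114366222-115021024, had 6 regions called in all 8 lists and 61 called in 1. The cluster of 60, chr12:115446258-115693829, had 20 called in all 8 and 16 called in 1. In all, 438 far regions (4.998%) lay within 100 kb of an antigen receptor segment.

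The T cell receptor locus Tra and Trd on chromosome 14 held 56 far regions. LPS libraries called 22 and 21 of them in KO and 14 and 17 in WT, and untreated libraries 34 and 40 in KO and 27 and 31 in WT. All 4 LPS libraries lay below all 4 untreated ones. Of the 56, 5 were called in all 8 lists. The locus was singled out after its values were seen. T cell markers Lck and Trac had regions called in all 8 lists, and 5 others, Cd3e and Cd3g among them, did not. In bulk samples, fewer cells of a type and less openness per cell cannot be told apart, and the part of other cell types in these counts was not tested.

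The remaining one of the 5 largest clusters, chr7:59416967-59616175, lay over Snhg14 between Ube3a and Snrpn, a region of imprinted genes where Snhg14 hosts long arrays of small nucleolar RNA genes. The table listed 101 snoRNA genes under it. None of its 41 regions was called in all 8 lists and 33 were called in 1. KO libraries called 9 and 13 with LPS and 1 and 10 untreated, and WT libraries 4 and 8 with LPS and 4 and 3 untreated. These counts overlap between genotypes and between treatments.

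The next clusters by size were 31 regions on chromosome 8 between 9530057J20Rik and Gm15319, with 6 in all 8 lists, and 28 near the end of X beside Asmt, with 4 in all 8 lists and 6 to 15 called per library. The cluster over Morrbid beside Bcl2l11, chr2:128288067-128487278, held 25 far regions, 10 of them in all 8 lists. KO libraries called 16 and 15 with LPS and 17 and 15 untreated, and WT libraries 21 and 19 with LPS and 19 and 15 untreated. A pair of clusters between Eea1 and Btg1, an anti-proliferative gene, held 23 regions each with 12 and 11 in all 8 lists. A cluster of 22 beside Myc, a growth-promoting transcription factor, overlapped the lncRNA Pvt1 and had 10 regions in all 8 lists. LPS libraries called 16 and 13 of these 22 in KO and 20 and 17 in WT, and untreated libraries 10 and 15 in KO and 14 and 14 in WT, so the treatments overlap. The stretch between Abca1 and Slc44a1 held 4 far regions, and all 4, the Mexis promoter among them, were called in all 8 lists.

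**Figure D2:**
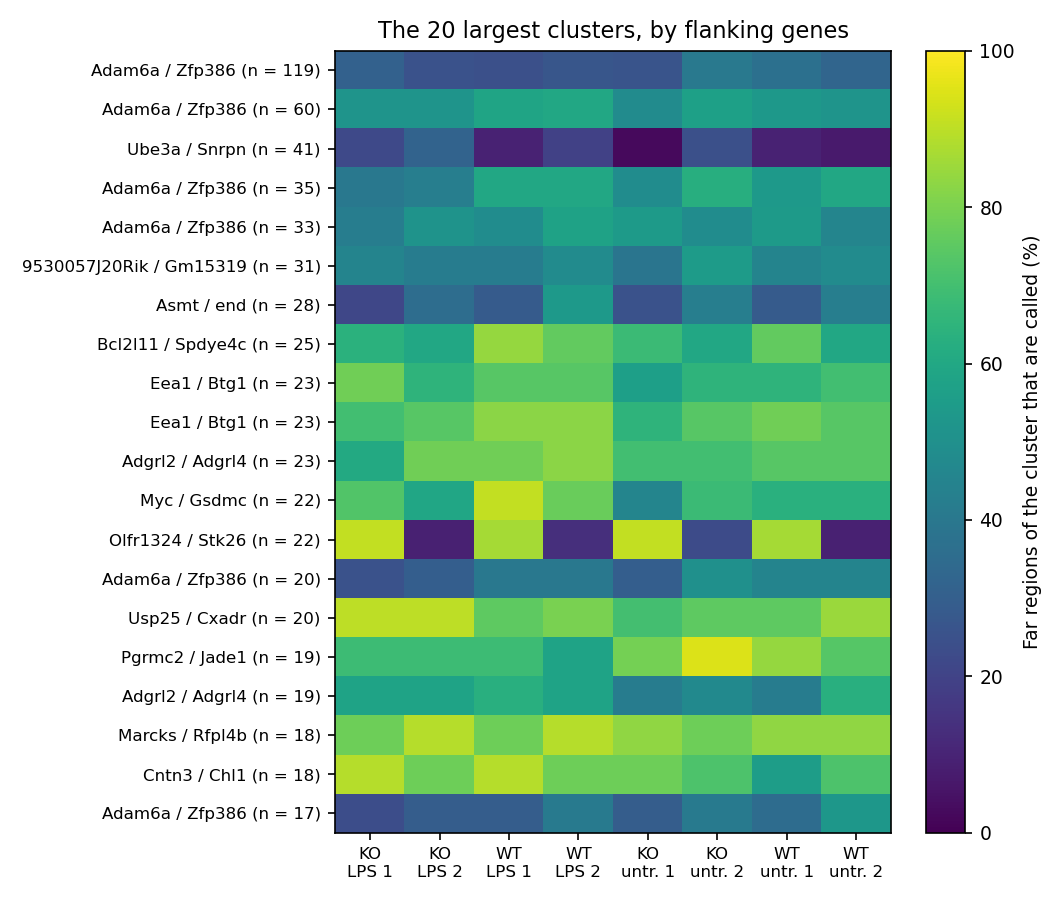
Share of the far regions of each of the 20 largest clusters that each library called (colour, %). Rows are clusters named by the protein-coding genes on either side with their number of far regions, and columns are the 8 libraries with untreated shortened to untr. The row between Olfr1324 and Stk26, which holds Firre, differs by replicate number in every group.

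Calls differed between far regions over different kinds of non-coding gene. A lncRNA gene lay under 1638 (18.7%), and 34.2% of these were called in all 8 lists. A pseudogene lay under 112 (27.7% in all 8 lists) and an antigen receptor segment under 134 (29.1%). A snoRNA or snRNA gene lay under 21, of which 1 was called in all 8 lists and 10 in 1. Of the 438 regions within 100 kb of a receptor segment, 16.2% were called in all 8. No listed gene of any kind lay under 6878 (78.5%), of which 24.2% were called in all 8. Mir7094-2 was the only miRNA gene under a far region, which was called in all 8 lists.

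Genes that flank a far region were looked up in gene lists. Of all 21887 protein-coding genes, 8.78% flanked at least 1. Among early LPS response genes, 4 of 26 did, with 60 far regions of which 25 were called in all 8 lists: Jun, an AP-1 subunit, with 27, Nfkbiz, an atypical NF-kB cofactor, with 22, Tnfaip3, which ends NF-kB signalling, with 8, and Ptgs2, the inducible prostaglandin synthase, with 3. Among late LPS response genes 2 of 14 did, Il12b with 4 and Edn1 with 3, and none of these 7 was called in all 8 lists. None of the 12 interferon response genes in the table flanked one. Of the 14 macrophage markers, Maf, a transcription factor of mature macrophages, flanked 24 far regions with 11 in all 8 lists. Of the markers of other cell types in the table, 1 of 6 for T cells, 1 of 6 for B cells, 0 of 7 for neutrophils, 1 of 6 for dendritic cells, 0 of 6 for erythroid cells, 4 of 7 for fibroblasts or stroma and 1 of 6 for mast cells or basophils flanked a far region.

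Calls by treatment were counted first within a genotype. Gained regions were called in both LPS libraries and in no untreated library of that genotype, and lost regions the other way round. In WT, 365 far regions (4.17%) were gained, where 3.96% of all regions were, and 438 (4.998%) were lost, where 5.06% of all were. In KO, 275 (3.14%) were gained, where 2.56% of all were, and 319 (3.64%) were lost, where 4.07% of all were. The gained set of KO and that of WT shared 101 far regions, 36.7% of the KO set and 27.7% of the WT set, and the lost sets shared 69, 21.6% of the KO set and 15.8% of the WT set. With 2 libraries against 2, the smallest p is 0.3333, so these counts carry no test.

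The 101 shared gains are the far regions that all 4 LPS libraries called and no untreated library did (1.15% of far regions, where 1.1% of all regions were), and the 69 shared losses are those called in all 4 untreated and no LPS library (0.787%, where 0.928% of all were). The far shares of both sets were near the shares over all regions. The 101 lay in 91 clusters or single places on 20 chromosomes at a median of 174 kb from a gene, and 18 overlapped a lncRNA. The 69 lay at a median of 177 kb, and 24 overlapped a lncRNA. The median of the mean peak widths was 332 bases in the 101 and 267.5 in the 69, where it was 291 over all far regions and 333.5 over other regions.

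With at least 50% of a region required to be covered by a library's peaks, 1 of the 8 widest of the LPS set and 3 of the 8 widest of the untreated set kept their pattern. The widest of the LPS set was chr13:29071010-29072742, 117 kb from Sox4, a transcription factor, and 119 kb from Cdkal1, with peaks of 1552 and 805 bases in KO with LPS and 212 and 711 in WT with LPS. A region 221 kb from Nfkbiz, chr16:55588917-55589978, had peaks of 982 and 342 bases in KO with LPS and 664 and 484 in WT with LPS, and was 1 of 2 in that stretch of 22 with this pattern. A region 302 kb from Atp2b1, a plasma membrane calcium pump, chr10:98611734-98612423, was the most even, with 642 and 555 bases in KO and 643 and 631 in WT. A region 129 kb from Rnd3, chr2:51000780-51001820, had 831 and 242 bases in KO and 891 and 956 in WT. The other 4 of the 8 widest lay beside Hs3st3a1, Tle3, Thumpd2 and Slc8a1, and 4931429L15Rik, with mean widths of 607 to 673 bases.

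The widest of the untreated set was chr1:154016497-154017107, 107 kb from Glul, the glutamine synthetase gene, with peaks of 335 and 490 bases in untreated KO and 527 and 459 in untreated WT. A region 105 kb from Ahr, a ligand-activated transcription factor, chr12:35392030-35392632, had 309 and 312 bases in untreated KO and 559 and 582 in untreated WT. A region 182 kb from Cited2, chr10:17540572-17541231, had 523 and 236 bases in untreated KO and 228 and 510 in untreated WT. The others among the 8 widest lay beside Eif4g2, Gadd45g, Lmo4, Tab2 and Cdkn2b, with mean widths of 373 to 421 bases.

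The widest regions of the sets within a single genotype or treatment were mostly called in some library outside the 4 compared as well. The widest gained in WT, chr2:56798860-56801058, lay 306 kb from Nr4a2, an immediate early nuclear receptor gene, over the lncRNA Gm33458. Its peaks were 1430 and 1764 bases in KO and 2151 and 1477 in WT with LPS, with 1614 in 1 untreated KO library and none in the other 3 untreated libraries. A region lost in WT 131 kb from Glul, chr1:154040354-154041139, had peaks of 739 and 739 bases with LPS and 734 and 750 untreated in KO, against none with LPS and 718 and 721 untreated in WT, and so was also KO-only with LPS. Both sets use the same WT libraries with LPS. The widest gained in KO, chr4:38023569-38025704, 1072 kb from Lingo2, had 2133 and 1177 bases with LPS and none untreated in KO, against 1627 in 1 library with LPS and 1052 and 1350 untreated in WT. A WT-only region with LPS 109 kb from Arglu1, chr8:8799386-8800231, was called in no other library, at 761 and 708 bases.

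The number of far regions per library differed by less than the spread between libraries with treatment. It averaged 4340 ± 276 with LPS and 4561 ± 301 untreated (SD, n = 4 each, two-sided exact permutation test over 70 arrangements, p = 0.343, adjusted over 6 tests 0.514). As a share of a library's called regions, far regions averaged 8.02% ± 0.667 with LPS and 7.88% ± 0.474 untreated (exact permutation test, p = 0.8286, adjusted 0.8286). The median far peak was 364 ± 7.48 bases wide with LPS and 381 ± 10.7 untreated (exact permutation test, p = 0.0571, adjusted 0.171), with 0 of 4 LPS libraries above every untreated one and 3 of 4 below every untreated one.

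Calls by genotype leaned towards KO. KO libraries called 4636 and 4511 far regions with LPS and 4376 and 5009 untreated, and WT libraries 4150 and 4064 with LPS and 4391 and 4468 untreated. The means were 4633 ± 272 in KO and 4268 ± 192 in WT (SD, n = 4 each, exact permutation test, p = 0.0857, adjusted 0.171). As a share of called regions the values were 8.63% and 8.56% with LPS and 7.89% and 8.54% untreated in KO, against 7.38% and 7.50% with LPS and 7.43% and 7.68% untreated in WT. All 4 KO libraries lay above all 4 WT libraries. The mean share was 8.40% ± 0.345 in KO and 7.50% ± 0.132 in WT, a ratio of 1.12 (SD, n = 4 each, two-sided exact permutation test, p = 0.0286, the smallest that 4 against 4 allows, and 0.171 after adjustment over 6 tests). The difference did not pass the threshold of 0.05 after adjustment, which this design cannot reach unless several tests give the smallest p. The test takes the 4 libraries of a genotype as separate, and if libraries of 1 code share an animal there are 2 animals per genotype and the smallest p is 0.3333. The median far peak width was 369 ± 15.4 bases in KO and 376 ± 9.39 in WT (exact permutation test, p = 0.429, adjusted 0.514).

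**Figure D3:**
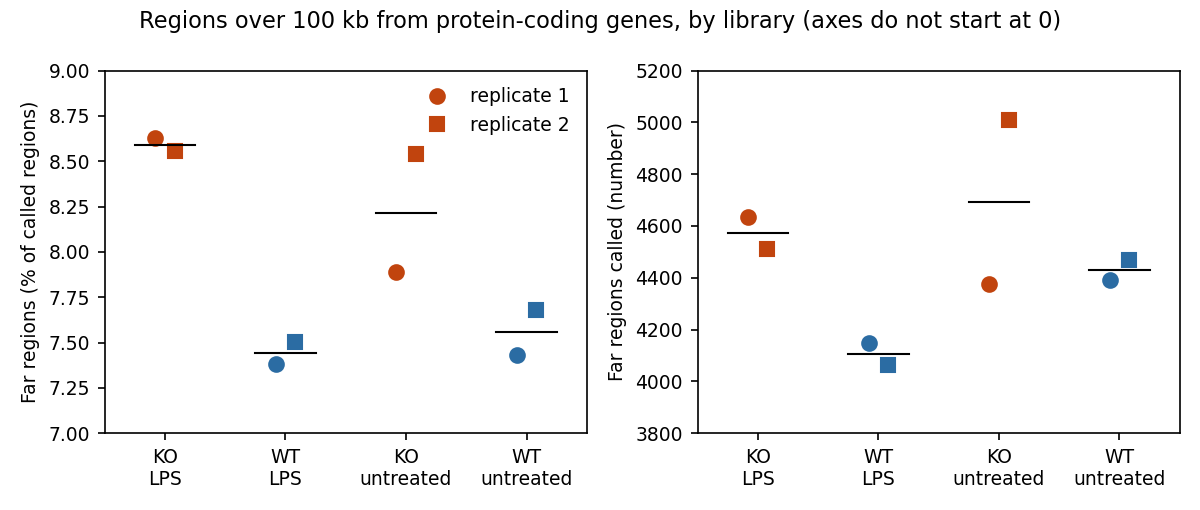
Far regions of each library as a share of its called regions (left, %) and as a number (right), by group, with both replicates as points and their mean as a line. On the left the 4 KO libraries sit between 7.89% and 8.63% and the 4 WT libraries between 7.38% and 7.68%. On the right the genotypes overlap.

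The excess of KO calls was larger the farther regions lay from genes. The share of a library's regions beyond 500 kb averaged 1.21% ± 0.117 in KO and 0.954% ± 0.0378 in WT (SD, n = 4 each), a ratio of 1.27. At 200 to 500 kb the ratio of KO to WT was 1.144, at 100 to 200 kb 1.07 and at 50 to 100 kb 1.03, and in these 4 classes all KO libraries lay above all WT libraries. At 5 to 50 kb the ratio was 0.978, at 0 to 5 kb 0.967 and over gene bodies 0.994. The shares of a library add up to 100%, so a larger share in one class lowers others. These classes were laid out with the difference already known and carry no test.

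**Figure D4:**
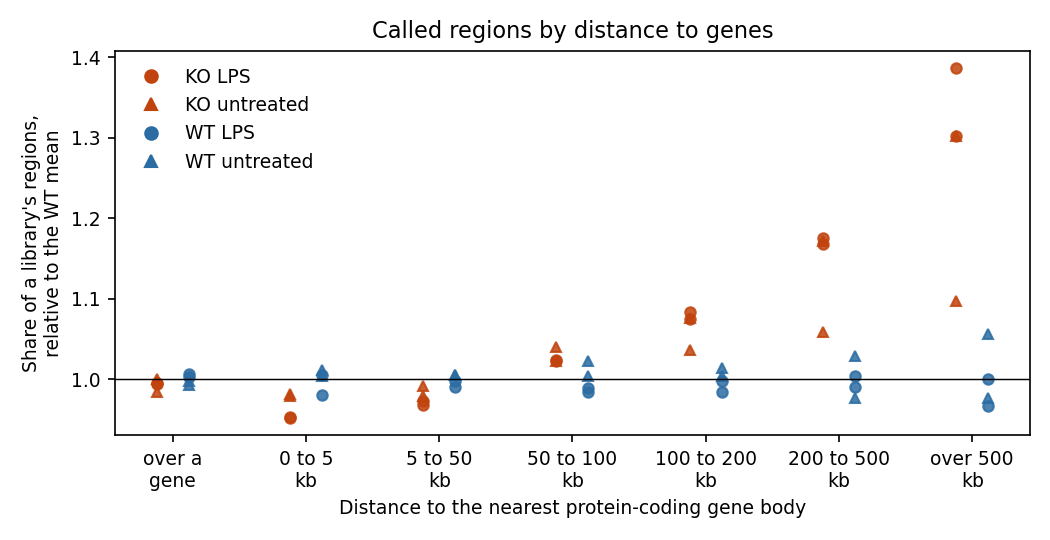
Share of each library's called regions in 7 classes of distance to the nearest protein-coding gene body, divided by the WT mean of that class (vertical axis, 1 is the WT mean). Beyond 500 kb the KO libraries lie between 1.10 and 1.39 times the WT mean, and over gene bodies both genotypes lie close to 1.

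Regions of all 8 lists are by definition the same in each library, so the genotypes can differ only in the remaining ones. Regions of 2 to 7 lists numbered 1891 ± 154 in KO and 1675 ± 152 in WT (SD, n = 4 each), the larger part of the difference. KO libraries called 443 ± 145 far regions that no other list called, and WT libraries 294.5 ± 43.3 (SD, n = 4 each). The KO values were 508 and 422 with LPS and 252 and 590 untreated, and the WT values 277 and 242 with LPS and 337 and 322 untreated, so they overlap. Far regions made up 22.4% ± 5.12 of a KO library's single-list regions and 12.4% ± 1.57 of a WT library's. Among regions of 2 to 7 lists the far share was 11.1% ± 0.755 in KO and 9.06% ± 0.295 in WT. On chromosomes, the mean number of far calls was higher in KO on 20 of 21, all but chromosome 11, and without overlap between genotypes on 2, chromosomes 5 and 10. The count by mean was the same for treatment, with untreated above LPS on 20 of 21, and without overlap on 0. So 20 of 21 is not particular to genotype.

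Regions called in both libraries of one genotype and neither of the other were counted within each treatment. With LPS, 335 far regions (3.82%) were KO-only, where 2.03% of all regions were, and 217 (2.48%) were WT-only, where 3.17% of all were. Untreated, 205 (2.34%) were KO-only, where 1.6% of all were, and 153 (1.75%) were WT-only, where 2.23% of all were. Far regions thus made up 18.9% of the KO-only and 7.85% of the WT-only regions with LPS, and 14.7% of the KO-only and 7.87% of the WT-only regions untreated. Called in all 4 KO and no WT library were 31 far regions (0.354%), where 0.147% of all regions were, and called in all 4 WT and no KO library were 7 (0.0799%), where 0.231% of all were. These counts carry no test.

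With at least 50% of a region required to be covered, 4 of the 8 widest of the 31 and 4 of the 7 kept their pattern. The widest of the 31 was chr15:97533704-97534612 between Pced1b and Rpap3, with peaks of 909 and 647 bases with LPS and 899 and 785 untreated in KO and none in WT. The next, chr5:12160622-12161489, 222 kb from Sema3d, a secreted guidance protein, had 844 and 743 bases with LPS and 687 and 826 untreated in KO. A second region of that stretch, chr5:12125417-12126329, was also among the 8 widest, with peaks of 196 to 913 bases. A region 190 kb from Tyrp1, a melanosome enzyme, chr4:80643751-80644594, had 814 and 376 bases with LPS and 739 and 515 untreated in KO. In the stretch between Kcnt2 and Cdc73, chr1:141933426-141934222 had 574 and 513 bases with LPS and 660 and 561 untreated in KO. The others of the 8 widest lay beside Nectin3, Slit2 and St8sia4.

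The 7 regions of all WT libraries and no KO library had mean widths of 197 to 636 bases, with a median of 282. The full 31 of the KO set had 203.5 to 810 bases, with a median of 326, so the ranges overlap. The widest, chrX:121367028-121368034 beside Pcdh11x, had 774 and 194 bases with LPS and 949 and 627 untreated in WT. A region 697 kb from Neto1, chr18:85697937-85698282, had 332 and 346 bases with LPS and 332 and 334 untreated. A region 329 kb from Trib2, a pseudokinase, chr12:16145571-16145928, had 199 and 319 bases with LPS and 355 and 319 untreated. Of the remaining 4, a pair lay in Igh, 1 of them over the segment Ighv5-9-1, and the others lay beside Ndufa4 and Thbs1.

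Single gene-free stretches showed the KO excess in small numbers. Of 281 stretches with at least 10 far regions, 17 (6.05%) had more far calls in every KO than in every WT library and 3 (1.07%) the reverse. The stretch between Kcnt2, a potassium channel gene, and Cdc73, a subunit of a transcription elongation complex, held 51 far regions. KO libraries called 24 and 24 of them with LPS and 21 and 28 untreated, against 11 and 14 with LPS and 13 and 16 untreated in WT. The stretch between Gbe1, the glycogen branching enzyme, and Robo1, a guidance receptor, held 21, of which KO libraries called 8 and 9 with LPS and 7 and 11 untreated, against 2 and 2 with LPS and 3 and 3 untreated in WT. Between Lcorl and Slit2, the ligand of Robo receptors, KO libraries called 13 and 11 of 20 with LPS and 11 and 14 untreated, against 3 and 5 with LPS and 6 and 8 untreated in WT. Between Plod2 and Dipk2a, KO libraries called 9 and 8 of 28 with LPS and 8 and 11 untreated, against 1 and 4 with LPS and 2 and 4 untreated in WT, and 22 of these 28 were called in 1 list. The KO minus WT difference in mean calls ran from 2.25 to 10.75 over the 17 stretches and from -3.5 to -2.5 over the 3. Between Trib2 and Lpin1, KO libraries called 7 and 6 of 17 with LPS and 6 and 9 untreated, against 10 and 11 with LPS and 10 and 11 untreated in WT.

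By treatment, 5 of the 281 stretches (1.78%) had more far calls in every LPS than in every untreated library and 9 (3.2%) fewer. Between Akr1e1 and Klf6, a zinc finger factor, LPS libraries called 27 and 27 of 41 in KO and 28 and 25 in WT, against 24 and 24 in KO and 24 and 23 in WT untreated. Between Prdm1, the gene of the repressor Blimp-1, and Prep, LPS libraries called 14 and 13 of 16 in KO and 13 and 13 in WT, against 11 and 10 in KO and 11 and 11 in WT untreated. Between Ube2e3 and Itga4, an integrin subunit, LPS libraries called 11 and 12 of 12 in KO and 12 and 11 in WT, against 9 and 9 in KO and 8 and 9 in WT untreated. In the other direction stood the Tra and Trd stretch described above and, among others, that between Fn1, the fibronectin gene, and Mreg, where LPS libraries called 10 and 11 of 19 in KO and 9 and 9 in WT, against 13 and 14 in KO and 14 and 12 in WT untreated. The stretches named here were picked after their values were seen.

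One group of far regions followed the replicate number and not genotype or treatment. Firre, at chrX:50563120-50635321, held 19 far regions. First replicates called 17 in KO and 16 in WT with LPS and 17 in KO and 16 in WT untreated. Second replicates called 1 in KO and 1 in WT with LPS and 3 in KO and 1 in WT untreated. The promoter region, chrX:50634983-50635904, alone was called in all 8 lists, at 620 to 911 bases wide. Within the gene, the region chrX:50590767-50592039 had peaks of 1256 bases in KO and 1204 in WT with LPS and 1245 in KO and 1271 in WT untreated in the first replicates and none in the second. Firre is known to bind CTCF on the inactive X chromosome of female cells.

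**Figure D5:**
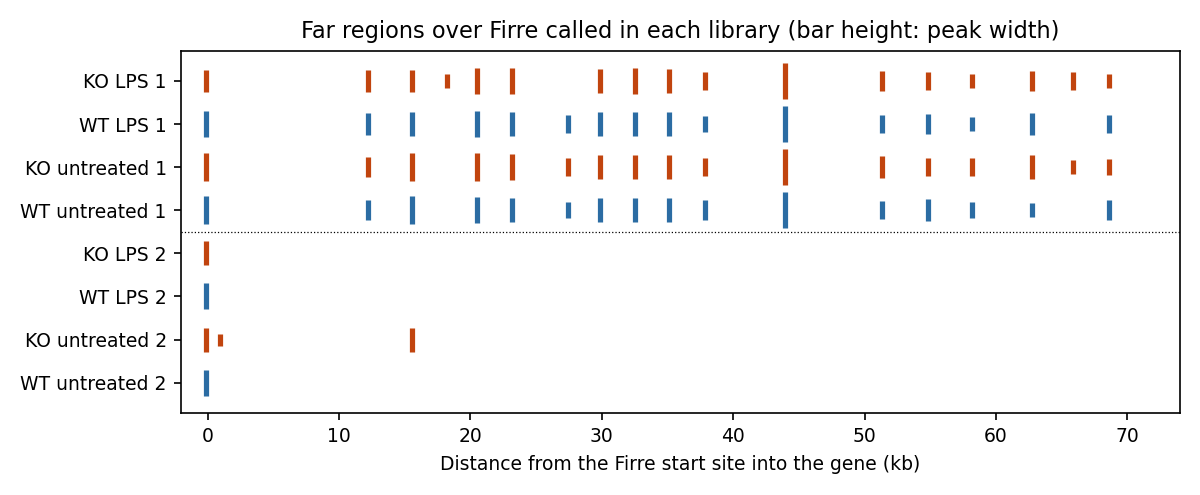
Far regions over Firre by library (rows) and distance of the region's centre from the start site into the gene (horizontal axis, kb), with bar height growing with peak width. The 4 first replicates, above the dotted line, called 16 or 17 regions each, and the 4 second replicates 1 to 3.

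Across the genome, 99 regions (0.113%) were called in all 4 first replicates and no second one, 24 of them far, of which 13 lay over Firre and 15 in all on the X chromosome. In the reverse set were 71 regions (0.0814%), 12 of them far, 4 on the Y chromosome. Far regions on X numbered 185 in KO and 164 in WT with LPS and 159 in KO and 152 in WT untreated among first replicates, and 129 in KO and 133 in WT with LPS and 137 in KO and 116 in WT untreated among second replicates. Far regions on Y numbered 4 in KO and 2 in WT with LPS and 3 in KO and 1 in WT untreated among first replicates, and 18 in KO and 9 in WT with LPS and 31 in KO and 10 in WT untreated among second replicates. Neither pair of ranges overlaps. The same split was present over all regions, with 1665 to 1723 on X in first and 1441 to 1547 in second replicates, and 28 to 34 on Y in first and 54 to 87 in second replicates. Xist, the RNA gene of X inactivation, which is not far, had 3 regions called in each first replicate and 0 or 1 in each second one. On autosomes alone the far share was 8.35% in KO and 7.45% in WT, a ratio of 1.12, as over all chromosomes.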

How the data were processed

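ATAC-seq peaks were analysed for 8 libraries of mouse bone marrow-derived macrophages. The deposited values were peak positions on GRCm38 (mm10), 1 list per library as the file headers and labels show, which the authors gave with no score, count or signal, so each position is a coordinate and not a measured intensity. The submitters' processing notes name MACS2 2.1.1, Picard, Bowtie2 2.3.0 and bcl2fastq 2.17.1.14. Their settings, the calling threshold, the handling of duplicates and whether ends were shifted were not given in the sources used here, and they decide which weak peaks are listed. Depth is unknown.

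Peaks were merged where they shared at least 1 base, and a region counted as called by each library with a peak in it. Distances were taken to the bodies of the 21887 genes that the GRCm38.p6 RefSeq table lists as protein-coding, which include 1886 predicted ones. Far regions within 25 kb of each other formed a cluster. Starts are counted from 1. Promoter windows and motif matches came from the RefSeq promoter table of that build, and a planned motif search over whole regions was not run because no genome sequence was used here.

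Library values of 4 against 4 libraries were tested by a two-sided exact permutation test of 70 arrangements (smallest p 0.0286), with Benjamini-Hochberg adjustment over 6 tests. Far regions were set against other regions by an exact sign-flip test over 256 arrangements, adjusted over 3. Its p is not given, since widths and shares of calls rest on regions that libraries have in common. The threshold was an adjusted p of 0.05. Python 3.11.15, pandas 2.3.3, numpy 2.4.6 and scipy 1.17.1 were used, and the functions were tested on simulated data. Each permutation p is the share of arrangements of these libraries with a difference of means at least as large as the observed one. It speaks for these libraries, and not for animals if libraries of 1 code share an animal.

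Named regions were the 10 widest and 5 farthest called in all 8 lists, the 5 farthest of all, the 5 largest clusters, chromosomes and stretches, and the 8 widest called throughout one arm and nowhere in the opposite one. The rule also takes the 3 widest of each within-genotype or within-treatment set, which are counted, with a few described. Loci named outside it are said to be so or stand as flanks of listed genes or as lncRNA landmarks, chosen after their values were seen. The members, lists and tests were chosen with earlier results of these data known. Alternatives tried were the distance limit (50 or 200 kb), coverage of at least 50% of a region, lists cut to equal length by width, no predicted genes, clusters at gaps of 10 or 50 kb, each library left out, and a replicate block. Leaving out X and Y, antigen receptor loci or single-list regions was added after seeing the data.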

Additional observations from a re-analysis of the deposited data

Results flagged for a closer look

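The second untreated KO library called 5009 far regions, which stood apart from the other 3 untreated libraries, at 4376 in KO and 4391 and 4468 in WT. Chance singles out about 1 in 20 groups of this size by the gap used here. Several groups were screened, as the gap was sought in number, share and median width within LPS, untreated, KO and WT libraries. The untreated group pools both genotypes. The second untreated KO library also called 590 far regions that no other list called, more than any other library did. Its share of far regions, 8.54%, lay close to those of the KO libraries with LPS.

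Among KO libraries the share of far regions in the first untreated library, 7.89%, stood apart from the remaining 3, at 8.54% to 8.63%. Without it the KO minus WT difference in the mean share was 1.08 percentage points, against 0.904 with all 8 libraries.

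When libraries were paired by replicate number, the change of the far share with LPS had opposite signs in the genotypes. Replicate numbers were not taken as pairs in the main tests. Between libraries of one number the LPS minus untreated difference was 0.738 and 0.019 percentage points in KO and -0.0508 and -0.18 in WT. The KO value of 0.738 uses the first untreated KO library, which stood apart above. The difference between the genotypes' means was 0.494 percentage points, and 0.134 to 0.854 with 1 library left out. With 2 differences per genotype the smallest p of a permutation test is 0.3333, so this difference was not tested further.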

How the results depend on the processing

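The KO minus WT difference in the share of far regions lay between 0.596 and 1.15 percentage points over 19 settings and kept its sign. Its adjusted p lay between 0.0571 and 0.375, never past the threshold. Far regions were below other regions in width, in calls by the other library of the group and in calls by all 8 in every setting run. Signs turned in these cases: the LPS minus untreated number was 132.5 with the widest peaks at equal list length, the LPS minus untreated share ranged from -0.0719 to 0.349 over the leave-one-out settings, and the KO minus WT median width was 1.625 bases without regions called in 1 list. None of the 3 had passed its test. The causes were not tested.

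Counts moved with the limits by construction. Beyond 50 kb there were 13709 far regions, 29.3% in all 8 lists, 2527 clusters, 585 gained and 739 lost in WT, 414 gained and 536 lost in KO, 275 WT-only untreated and 369 with LPS, and 154, 130 and 18 called in all LPS, all untreated and all WT libraries and none of the opposite arm. Beyond 200 kb there were 4771, 22.2% in all 8 lists, 857 clusters, 186 gained and 211 lost in WT, 138 gained and 148 lost in KO, 118 KO-only and 76 WT-only untreated, 190 KO-only and 113 WT-only with LPS, and 41, 26, 17 and 4 in all LPS, untreated, KO and WT libraries. With at least 50% of the region covered, 15.8% were in all 8 lists and 13 were in all WT and no KO libraries, and at equal list length 38 were in all untreated and no LPS libraries. Without regions called in 1 list, 5813 remained with 39.5% in all 8.

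Leaving out 1 library loosens each set. The ranges were 27.5% to 28.5% in all remaining lists, 365 to 826 gained and 438 to 1057 lost in WT, 275 to 965 gained and 319 to 1204 lost in KO, 205 to 1022 KO-only and 153 to 620 WT-only untreated, 335 to 1122 KO-only and 217 to 633 WT-only with LPS, and 113 to 153, 79 to 111, 34 to 65 and 9 to 17 in all LPS, untreated, KO and WT libraries. The ranges of the other results were 8173 to 8521 far regions and 1478 to 1542 clusters. Of the 8 widest LPS regions named, 1 kept its pattern at that coverage and 8 at equal list length, of the 8 untreated regions 3 and 7 did, of the 8 all-KO regions 4 and 6, and of the 7 all-WT regions 4 and 3.

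Replicate numbers were not taken as pairs, since deviations of same-numbered libraries correlated at 0.0336 to 0.0554 over far regions, under the 0.1 required. Calls on X, Y, Firre and Xist split by replicate number all the same, and the main test leaves this block out. With a replicate block, the KO minus WT share difference of 0.904 had an exact p of 0.125, the smallest it allows, adjusted 0.375, and no call changed. With labels permuted within treatments its p was 0.0556.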
